A study of Mus musculus with 2 samples.

Results

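Monocytes in liver metastases of 4T1 cells are described here. They were chosen by the authors' deposited cell type annotation, as every cell annotated Monocytes in either library, and they number 3828 of 44371 cells. 4T1 is a mouse triple-negative breast cancer line, and the metastases were taken on day 14 after 250000 cells had been injected into the spleen of female BALB/c mice aged 6 to 8 weeks. The injected cells carried a scrambled hairpin in the control group, shSCR, or a hairpin silencing Zdhhc17, the gene of a palmitoyltransferase, in the other group, shZdhhc17. Both lines were made with a lentiviral vector and selected with puromycin, and the sources used here do not say whether either is 1 clone. The monocytes themselves came from hosts that carried no hairpin. In both groups the spleen was removed minutes after injection, the liver was perfused, and dissociated cells were treated with a red cell lysis buffer. Cells of 3 mice were pooled in equal numbers per group and captured on a BD Rhapsody cartridge, a microwell system, with a target of 15000 cells, so each group is 1 library of pooled animals and mice cannot be told apart.

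Monocytes are made in the bone marrow, circulate in blood and enter tissue, where they can become macrophages or dendritic cells. Classical mouse monocytes carry Ly6C on their surface and leave the marrow through the chemokine receptor Ccr2, which binds Ccl2, whereas non-classical monocytes patrol vessels and depend on the transcription factor Nr4a1. Csf1r, the receptor for the growth factor Csf1, is shared by monocytes and macrophages. In mouse models of breast cancer, monocytes recruited to a metastasis are a source of its macrophages, and the spleen is a known reservoir of monocytes.

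The shSCR library held 22860 cells with 214842365 UMIs (unique molecular identifiers, counts of captured RNA molecules) and a median of 7105 UMIs per cell. The shZdhhc17 library held 21511 cells with 172527305 UMIs and a median of 6732. With 1 library per group no test between groups was possible. Each share below has an exact Clopper-Pearson 95% interval and each ratio, always shZdhhc17 over shSCR, a log-normal 95% counting interval. Both cover counting error only, since pooling leaves no spread between mice to measure. The words higher and lower are used of a share where the libraries' exact intervals stand apart, and an overlap does not show that shares are equal. Expression per gene and library was not analysed here, so the label could not be checked against levels of Ly6c2, Ccr2 or Csf1r. In all, 609 cell barcodes occurred in both libraries. Among the monocytes 102 (2.66%) had such a barcode, and in 6 cases both cells of the barcode were monocytes.

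Monocytes made up a smaller share of the shZdhhc17 library than of the shSCR library. They were 2222 cells in shSCR, 9.72% of the library (9.34 to 10.1), and 1606 cells in shZdhhc17, 7.47% (7.12 to 7.83). The ratio of 0.768 (0.722 to 0.817) is lower with separate intervals. The size of this difference depended on the cells counted in the denominator. Among cells other than cancer cells monocytes were 13.3% in shSCR and 11.8% in shZdhhc17, a ratio of 0.886 (0.834 to 0.941) that was still lower. Among immune cells they were 15.6% (15.0 to 16.2) and 14.4% (13.8 to 15.1), and these intervals overlapped (ratio 0.929, 0.876 to 0.986). Neutrophils, the most abundant immune type, were themselves at 28.8% of shSCR and 20.1% of shZdhhc17. Cancer cells, which are part of the denominator of all cells, numbered 6207 of 22860 cells in shSCR and 7928 of 21511 in shZdhhc17.

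The balance of monocytes against the other phagocytes went in opposite directions for macrophages and neutrophils. There were 71.1 monocytes per 100 non-Kupffer macrophages in shSCR and 54.7 in shZdhhc17, a ratio of 0.770 (0.710 to 0.836). With Kupffer cells, which live in the liver's own vessels, added to the macrophages, the values were 60.6 and 43.6 (ratio 0.719, 0.665 to 0.778). Per 100 neutrophils there were 33.7 monocytes in shSCR and 37.1 in shZdhhc17, a ratio of 1.10 (1.02 to 1.19). The size of this ratio depended on depth. Neutrophils under 1000 UMIs were 13.3% in shSCR and 31.1% in shZdhhc17. Among cells with at least 1000 UMIs the ratio was 1.38, and with at least 2000 UMIs it was 1.50. Per 100 cells annotated as MDSCs (myeloid-derived suppressor cells, immature myeloid cells that dampen T cells) there were 313.8 and 355.3, and the interval of that ratio (0.990 to 1.29) holds 1. Non-Kupffer macrophages were at 13.7% of all cells in shSCR and 13.6% in shZdhhc17, with overlapping intervals. Among immune cells they were higher in shZdhhc17, at 21.9% and 26.4% (ratio 1.21, 1.15 to 1.26), and so they were among cells other than cancer cells, at 18.8% and 21.6% (ratio 1.15, 1.10 to 1.20).

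Among cells of low mitochondrial percent the smaller share of monocytes in shZdhhc17 was not seen. Among all cells with at most 5% mitochondrial UMIs, the ratio of monocyte shares was 1.14 (1.04 to 1.25) with overlapping exact intervals, and the ratio of monocytes per macrophage was 1.03 (0.894 to 1.18). Such cells were 36.5% of the monocytes of shSCR (34.5 to 38.6) and 47.8% of those of shZdhhc17 (45.3 to 50.2), higher with separate intervals. In macrophages they were 28.5% and 28.0%, and in neutrophils 86.7% and 87.8%, both with overlapping intervals. By classes of mitochondrial percent, monocytes were 13.2% of the cells between 2.5 and 5% in shSCR and 15.5% in shZdhhc17. Between 5 and 7.5% they were 15.5% and 9.94%, between 7.5 and 10% they were 7.93% and 3.79%, and between 10 and 15% they were 3.19% and 1.20%. Monocytes were thus a higher share in 1 class, 2.5 to 5%, a lower share in the 3 classes above it, and had overlapping intervals below 2.5%. In monocytes the mitochondrial percent was lower at few UMIs. Over 10 classes of UMIs drawn from the monocytes, its median was 3.25% in the lowest class and 6.45% in the highest in shSCR. In shZdhhc17 these medians were 3.61% and 6.59%. Among monocytes, a limit of 5% therefore also draws more on cells of few UMIs, so splits by mitochondrial percent and by UMIs are not independent. The part of the mitochondrial percent in the difference of shares was not tested.

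**Figure D1:**
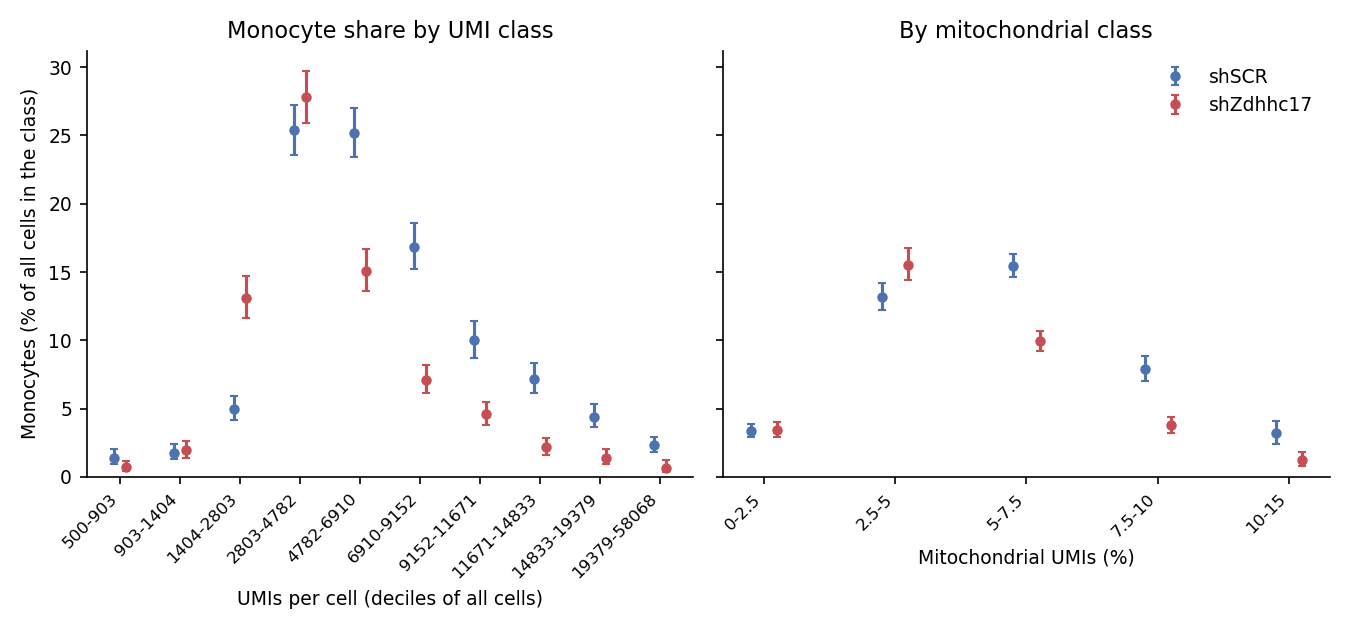
Monocytes as a percent of all cells of each library within a class of cells, with exact 95% intervals for counting error; the left panel has 10 classes of UMIs per cell (deciles of all cells) and the right panel 5 classes of mitochondrial percent. From 4782 UMIs upwards the shZdhhc17 points lie below those of shSCR, and in the class of 1404 to 2803 UMIs the order is the opposite.

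Monocytes of shZdhhc17 also held fewer UMIs. The median was 5926 UMIs per monocyte in shSCR (quartiles over cells 4242 and 8967) and 4371 in shZdhhc17 (3080 and 6659), a ratio of 0.738. Detected genes had medians of 2170.5 and 1848.5, a ratio of 0.852. The median mitochondrial percent was 5.67% in shSCR and 5.10% in shZdhhc17. Together the monocytes gave 16243877 UMIs in shSCR and 8545622 in shZdhhc17. Of the 11 cell types with at least 200 cells in each library, every type had a lower median in shZdhhc17, with ratios from 0.551 to 0.889 and a median ratio of 0.805. Monocytes had the 4th lowest ratio, after T cells, neutrophils and endothelial cells. The ratio was 0.832 for macrophages and 0.575 for neutrophils.

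The lower depth of the shZdhhc17 monocytes showed along most of the distribution, but the share of cells under 1000 UMIs had overlapping intervals. Cells over 20000 UMIs were 63 (2.84%, 2.19 to 3.61) of the shSCR monocytes and 7 (0.436%, 0.175 to 0.896) of the shZdhhc17 monocytes, lower with separate intervals. Macrophages had 3.74% and 0.920% such cells, and neutrophils 5.41% and 2.08%. Monocytes with at least 2000 UMIs were 95.3% (94.4 to 96.2) in shSCR and 92.4% (91.0 to 93.7) in shZdhhc17, also lower with separate intervals. Cells under 1000 UMIs were 1.49% and 1.62% of the monocytes, whereas among neutrophils they were 13.3% and 31.1%. Monocytes without any mitochondrial UMI were 5 in each library, and among neutrophils such cells were 1010 in shSCR and 1353 in shZdhhc17.

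Because depth differed, the share of monocytes was also set out by UMI class, with limits at the deciles of all cells. Between 1404 and 2803 UMIs monocytes were 4.97% of the shSCR cells (4.16 to 5.89) and 13.1% of the shZdhhc17 cells (11.6 to 14.7), a ratio of 2.64. Between 2803 and 4782 UMIs, where they were most frequent in shZdhhc17, they were 25.4% and 27.8% with overlapping intervals. Between 4782 and 6910 UMIs they were 25.2% (23.4 to 27.0) and 15.1% (13.6 to 16.7), a ratio of 0.598. In the 5 classes above that the ratio ran from 0.289 to 0.458, and all 6 classes from 4782 UMIs upwards were lower with separate intervals. In the lowest 2 classes, below 1404 UMIs, the intervals overlapped. The classes hold different parts of each library's monocytes, since the whole monocyte distribution lay lower in shZdhhc17. With equal weight for each class, the ratio was 0.749. The classes held similar numbers of cells, 1836 to 2956 in shSCR and 1482 to 2598 in shZdhhc17. This mean therefore lies near the value over all cells by its making, and it does not adjust for the lower depth of the shZdhhc17 monocytes.

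At equal UMIs, the monocytes of both libraries had similar numbers of detected genes. Between 4000 and 6000 UMIs, the median was 1932 genes in 655 shSCR monocytes and 1963 genes in 440 shZdhhc17 monocytes. Macrophages in that band had 2025 and 2053 genes, and neutrophils 1406 and 1514. Monocytes were therefore close to macrophages and above neutrophils in genes per UMI. Over 10 classes of UMIs drawn from the monocytes, detected genes were higher in shZdhhc17 in 9 classes, with ratios from 0.989 to 1.21. The value of 1.21 came from the lowest class, where the median UMIs still differed (1483.5 in shSCR and 1959 in shZdhhc17), and the highest ratio in the other 9 classes was 1.03. The mean ratio was 1.04 over the 10 classes, which includes the 1.21 of the lowest class, and 1.02 over 50 finer classes. The lower gene number of shZdhhc17 monocytes over all cells was thus not seen by UMI class. In mitochondrial percent the matched classes gave no common direction: it was higher in shZdhhc17 in 5 of 10 classes, with differences from -0.521 to 0.363 percentage points.

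**Figure D2:**
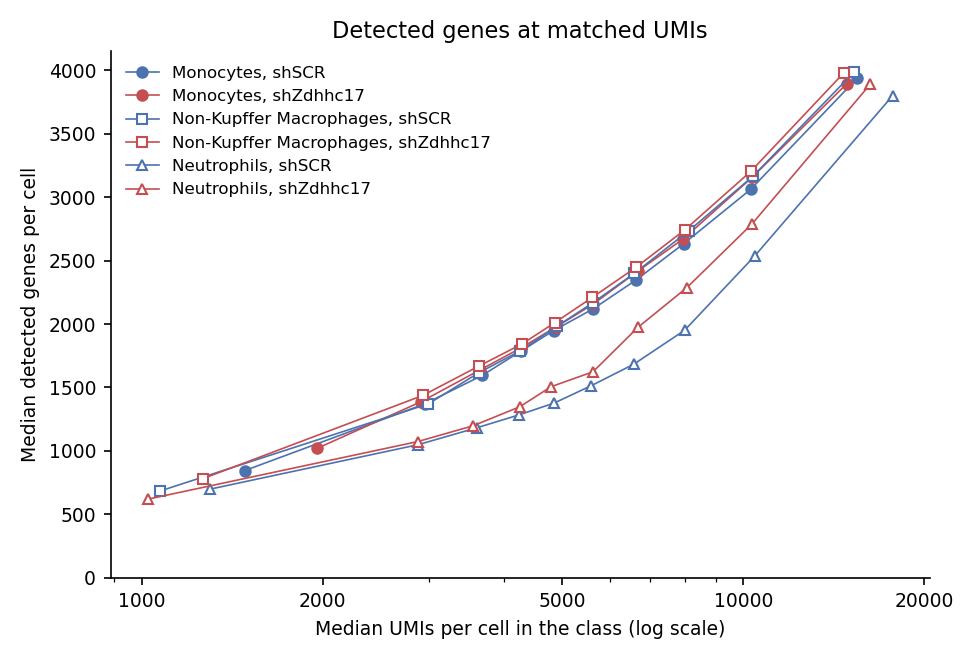
Median detected genes per cell against median UMIs per cell (log scale) in 10 classes of UMIs, for monocytes, non-Kupffer macrophages and neutrophils of each library. The monocyte curves of both libraries lie close together and near those of macrophages, and the neutrophil curves lie below them.

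The authors' initial clustering of all cells, into 138 clusters, divided the monocytes into 11 clusters with at least 50 monocytes each. These held 3708 of the 3828 monocytes (96.9%). In 4 clusters (57, 66, 102 and 119) every cell was a monocyte, and in 9 of 11 monocytes were over 97% of the cells. The exceptions were cluster 2, with 65 macrophages among its 610 cells (89.3% monocytes), and cluster 83 (94.2%). The smallest of the 11, cluster 119, had 113 monocytes, and the largest group left out by the limit of 50 was the 49 monocytes of cluster 26. The genes that define these clusters were not analysed here, so they are called by number and no monocyte subset is assigned. With 1 library per group, a cluster drawn mostly from 1 library may be that library and not a type of cell.

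The makeup of the monocytes differed between the libraries in 4 of these clusters, 2 lower and 2 higher in shZdhhc17. That is 36.4% of the monocyte clusters, against 53.8% of the 117 clusters of all cell types counted in the same way, 37.5% of macrophage clusters and 56.2% of neutrophil clusters. The share in monocytes was near that in macrophages and below that of all types pooled, and the difference between types was not tested. By direction, 18.2% of the monocyte clusters were higher and 18.2% lower, against 28.2% and 25.6% over all types. Cluster 11 held 399 monocytes in shSCR, 18.0% of them (16.4 to 19.6), and 134 in shZdhhc17, 8.34% (7.04 to 9.80), a ratio of 0.465 (0.386 to 0.559). It was the largest monocyte cluster of shSCR and the sixth in size in shZdhhc17. Cluster 119 held 84 and 29 monocytes, 3.78% and 1.81%, a ratio of 0.478 (0.315 to 0.725). In the other direction, cluster 25 held 201 monocytes in shSCR, 9.05% (7.89 to 10.3), and 245 in shZdhhc17, 15.3% (13.5 to 17.1), a ratio of 1.69 (1.42 to 2.01). Cluster 83 held 115 and 161 monocytes, 5.18% (4.29 to 6.18) and 10.0% (8.60 to 11.6), a ratio of 1.94 (1.54 to 2.44). The other 7 clusters had overlapping intervals, with ratios from 0.773 in cluster 66 to 1.14 in cluster 73.

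**Figure D3:**
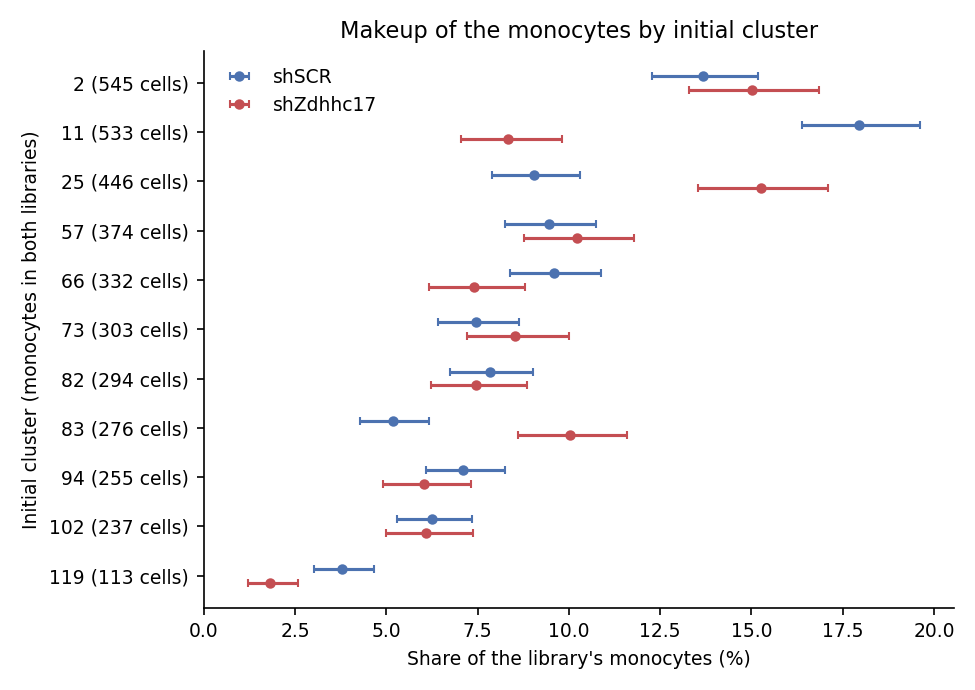
Share of each library's monocytes in the 11 initial clusters with at least 50 monocytes, with exact 95% intervals for counting error; the number of monocytes in both libraries stands beside the cluster. Clusters 11 and 119 lie lower in shZdhhc17, clusters 25 and 83 higher, and the intervals of the other 7 overlap.

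Shares of the monocytes sum to the whole, so the clusters were also counted against all cells of a library. In that count 9 of the 11 clusters had a ratio below 1, and 5 (45.5%) had separate intervals, 1 higher (9.09%) and 4 lower (36.4%). Of the 117 clusters of all types counted in the same way, 53.0% had separate intervals, 25.6% higher and 27.4% lower. Cluster 83 was higher, at 0.503% of the shSCR cells and 0.748% of the shZdhhc17 cells (ratio 1.49, 1.17 to 1.89). Cluster 25 was at 0.879% and 1.14% with overlapping intervals (ratio 1.30, 1.08 to 1.56). Clusters 11, 119, 66 and 94 were lower, with ratios of 0.357, 0.367, 0.594 and 0.652. Cluster 11 alone went from 1.75% of all cells in shSCR to 0.623% in shZdhhc17. That is 1.12 of the 2.25 percentage points by which the monocyte shares of the libraries differed, or 49.8% of the difference. Without cluster 11 the ratio of monocyte shares was 0.858 (0.803 to 0.917), and without clusters 11 and 119 it was 0.882 (0.824 to 0.943), both still lower with separate intervals.

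The 11 clusters differed from each other more in depth than the libraries did. Over both libraries, the cluster medians ran from 4316.5 UMIs in cluster 25 to 17076 in cluster 119, where the median cell had 4155 detected genes. Of the 70 monocytes over 20000 UMIs, 36 were in cluster 119. Clusters 94, 66 and 102 followed, with medians of 10073, 7982.5 and 7418 UMIs. The 2 clusters that were higher in shZdhhc17, 25 and 83, had medians of 4316.5 and 4661 UMIs, and cluster 11 had 4921. Median mitochondrial percent ran from 3.32% in cluster 2 and 4.11% in cluster 82 to 6.68% in cluster 94. Whether the depth of cluster 119 bears on its being a cluster of its own was not tested.

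Within every one of the 11 clusters the median UMIs were lower in shZdhhc17, with ratios from 0.641 to 0.936 and a median ratio of 0.774. In cluster 11 the medians were 5411 and 3564.5 UMIs, a ratio of 0.659. In cluster 73 they were 6140 and 3936, the lowest ratio, and in cluster 57 they were 4571 and 4279.5, the highest. In cluster 119 they were 18305.5 and 15011. Detected genes were also lower in all 11 clusters, and the mitochondrial percent in 8, with clusters 82, 94 and 119 as the exceptions. Macrophages showed lower UMIs in 15 of their 16 clusters (median ratio 0.804) and neutrophils in all 32 (median ratio 0.743). The geometric mean UMIs of monocytes in the clusters was 6033 in shSCR and 4457 in shZdhhc17, a ratio of 0.739. With the cluster levels of shSCR and the cluster makeup of shZdhhc17 the ratio would be 0.951, and with the makeup of shSCR and the levels of shZdhhc17 it would be 0.759. The lower UMIs of the monocytes lay within the clusters far more than in the shift between them.

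**Figure D4:**
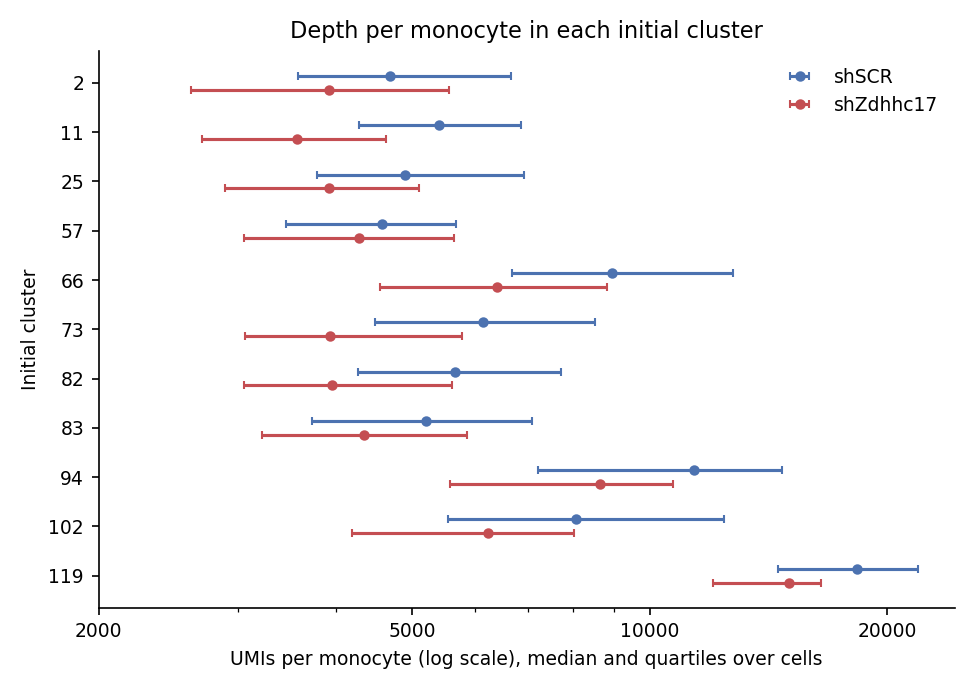
UMIs per monocyte (log scale) in the 11 initial clusters, by library; points are medians and bars the quartiles over cells, which describe the cells and are no error of a group. In each cluster the shZdhhc17 median lies to the left of the shSCR median, and cluster 119 lies to the right of the other clusters in both libraries.

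The border of the monocytes lay against macrophages. The 120 monocytes outside the 11 clusters were spread over 11 other initial clusters, and macrophages were the most frequent type in each of these. Cluster 26 held 49 of them, 16 from shSCR and 33 from shZdhhc17, among 452 cells, and cluster 7 held 21. Such monocytes were 2.66% of the monocytes of shSCR and 3.80% of those of shZdhhc17, with overlapping intervals (ratio 1.43, 1.01 to 2.03). Macrophages inside the monocyte clusters were 68 of 3127 in shSCR and 36 of 2934 in shZdhhc17, 2.17% and 1.23%, with intervals that overlapped at their ends (ratio 0.564, 0.378 to 0.842). Counting these macrophages as monocytes left the ratio of monocyte shares at 0.762, and counting only the monocytes of the 11 clusters left it at 0.759.

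Neighbours in the authors' UMAP, a map of all cells drawn from the most variable genes, gave the same border. Of the 30 nearest neighbours of each monocyte, 95.5% were monocytes and 4.49% macrophages. Kupffer cells came to 18 neighbours in all, a group the authors marked as doublets to 40, and neutrophils, MDSCs and dendritic cells to 0. Macrophage neighbours were most frequent around cluster 2 (8.36%) and cluster 83 (4.83%), and clusters 66, 102 and 119 had 0. Monocytes for which fewer than 50% of the neighbours were monocytes numbered 49 in shSCR (2.21%) and 57 in shZdhhc17 (3.55%), with overlapping intervals (ratio 1.61, 1.10 to 2.345). The annotation and the map were made from the same expression data, so their likeness is a description and no separate evidence for the label.

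The authors' re-clustering of these cells was much finer. It gave 211 final clusters that held monocytes and no other type, of 3 to 106 cells with a median of 9. That no other type was among them may follow from how sets were chosen and types named, which was not examined. Of the 61 with at least 20 monocytes, 13 (21.3%) differed between the libraries with separate intervals, 7 higher and 6 lower in shZdhhc17, against 25.7% of the 567 final clusters of that size over all types. By direction, 11.5% were higher and 9.84% lower, against 13.4% and 12.3% over all types. Final clusters that drew most on the same initial cluster did not always go the same way. Some of them also held many monocytes of other initial clusters, so they are not parts of 1 initial cluster alone. Of the final clusters whose largest source was initial cluster 57, which as a whole had overlapping intervals, 2 were higher and 1 was lower. Final cluster J.27, with 61.7% of its monocytes from cluster 57, had 12 in shSCR and 35 in shZdhhc17. J.44, with 43.3% from cluster 57, had 3 and 27. The lower one, J.20, with 73.6% from cluster 57, had 41 and 12. Of those drawn most from cluster 11, J.2 (83.3% from it) had 71 monocytes in shSCR and 19 in shZdhhc17. J.56 (91.3% from it) had 22 and 1. The 1 that was higher, J.43 (60% from it), had 9 and 21. J.39, drawn to 93.9% from cluster 82, had 33 monocytes in shSCR and 0 in shZdhhc17, which allows a share of up to 0.187% of the shZdhhc17 monocytes by a limit of 3 cells, or 0.229% by the exact interval. In all, 20 final clusters (9.48%) occurred in shSCR alone (115 cells) and 7 (3.32%) in shZdhhc17 alone (31 cells), together 12.8% of the 211. The libraries gave unequal numbers of monocytes, 2222 in shSCR and 1606 in shZdhhc17. The part of this in the 2 counts was not tested. Over the 1410 final clusters of at least 3 cells of all re-clustered types, whose median size was 14 cells, 5.04% occurred in shSCR alone and 5.18% in shZdhhc17 alone, together 10.2%.

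Genes known for monocyte biology were looked up in the authors' gene tables, which hold flags and no levels. A flag marks the 1000 most variable of 28523 genes (3.51%) over all cells of all types, so it says that a gene varied between cells and nothing of monocytes alone. Ccr2 (ENSMUSG00000049103.14, protein-coding, chromosome 9 of GRCm38, 124101950 to 124113557, on the plus strand) was among the variable genes. Ly6c2 (ENSMUSG00000022584.14, protein-coding, chromosome 15 of GRCm38, 75108158 to 75111970, on the minus strand) was not, and it has a near-identical neighbour, Ly6c1, so that counts of either are uncertain where reads could be split. Csf1r was not among them either. Of 15 classical monocyte markers, 10 were variable, among them Ccr2, Chil3, Plac8, F13a1 (a coagulation factor subunit), Vcan, Cd14 (a coreceptor for bacterial lipopolysaccharide), Lyz2 (lysozyme), Fn1 (fibronectin) and S100a4. Of 12 non-classical markers 3 were variable: Nr4a1, Pou2f2 and Cd36, a fatty acid uptake receptor.

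By role, the lists held variable genes at unequal rates. Of 16 recruitment genes 9 were variable, among them the receptor Ccr2, its ligands Ccl2, Ccl7, Ccl8 and Ccl12, and the inflammatory chemokines Ccl3, Ccl4 and Ccl5. The growth factor list had 3 of 9, the ligand Csf1 and the receptors Csf3r and Kit. Among 12 lineage transcription factors 4 were variable, Nr4a1, Zeb2, Irf4 and Klf2, and Spi1 and Irf8, which set myeloid fate, were not. The interferon list had 8 of 11: Ifit1, Ifit2, Ifit3, Rsad2 and Oasl1, which act against viruses, the chemokines Cxcl9 and Cxcl10, and the GTPase Gbp2. The suppressive list had 8 of 10: Arg1 and Nos2, which consume arginine, the checkpoint ligand Cd274, the prostaglandin synthase Ptgs2, Vegfa, Il1b, and the calprotectin subunits S100a8 and S100a9. Antigen presentation had 4 of 6, the MHC class II genes H2-Aa, H2-Ab1 and H2-Eb1 and their chaperone Cd74. For other cell types, 7 of 12 macrophage markers (C1qa, C1qb, C1qc, Mrc1, Apoe, Spp1 and Gpnmb), 4 of 6 Kupffer markers, 11 of 11 neutrophil markers and 0 of 4 markers of 4T1 epithelium were variable. So were 4 of 8 dendritic, 3 of 6 T and NK, 3 of 3 B, 3 of 3 basophil, 2 of 3 hepatocyte and 3 of 3 erythroid markers.

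Classical monocyte markers also occur in the authors' data on neutrophils. All 15 were listed in the authors' gene table for the neutrophils, as were 9 of 12 non-classical markers, 5 of 12 macrophage markers and 1 of 6 Kupffer markers, against 75.5% of all genes. The table also listed 6 of 6 T and NK markers, 3 of 3 B markers and 11 of 11 interferon genes. Of dendritic markers it listed 6 of 8, and of hepatocyte markers 0 of 3. A full listing was thus not particular to classical monocyte markers, and it gives no level. In the authors' deposited table of neutrophil cluster markers, Lyz2 marked the cluster named NETosis 1 with a log2 fold change of 2.74 against other neutrophils, and was above 0 in 98.0% of its cells. In the authors' deposited table Chil3, a chitinase-like protein, marked NETosis 2 with a log2 fold change of 2.11 (above 0 in 88.6% of its cells). The authors' deposited table also held 10 of the 11 neutrophil markers. From the lists by role the authors' deposited table held Selplg, a selectin ligand, for Migration 2, Csf3r and Il1b for Inflammation, Cd274 for Hypoxia/Angiogenesis and S100a8 for ECM Remodeling, with log2 fold changes of 0.87, 1.05, 2.05, 2.62 and 1.46. These values compare neutrophils with neutrophils and give no level in monocytes.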

How the data were processed

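Single-cell RNA-seq libraries were analysed from the tables the authors deposited. Per the file headers, reads went through the BD Rhapsody pipeline, and the authors corrected counts for ambient RNA, clustered all cells, re-clustered chosen sets and named types from marker expression, with gene symbols of GRCm38 (mm10). The submitters' processing notes name Seurat 4.1.0. The sources used here give neither the pipeline version nor the ambient correction tool. UMIs and detected genes are whole-number counts per cell as deposited, the mitochondrial value is a percent per the file headers, and UMAP coordinates are a score per the file headers. The authors' neutrophil markers have log2 fold changes and the fraction of cells above 0, per the file headers, printed as a percent.

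No deposited cell had under 500 UMIs or over 15.0% mitochondrial UMIs. The authors set 1391 and 1332 cells apart as doublets or unknown, and no doublet caller was run. These cells stayed in the denominators of all cells and of cells other than cancer cells. They were not counted among immune cells or among monocytes, macrophages, Kupffer cells and neutrophils. Depth limits a share of 0 to 0.0131% and 0.0139% of the libraries (3 cells). Shares, ratios, medians and nearest neighbours were computed with pandas 2.3.3, numpy 2.4.6 and scipy 1.17.1 in Python 3.11.15, and the intervals were tested on simulated data. Gene positions are from GENCODE's GRCm38 annotation. Members and lists were chosen with earlier results of these data known. The text names Ly6c2, Ccr2, Csf1r and every member of the 6 gene lists that the authors flagged as variable or as a neutrophil marker, except for an item that is not reported here. Macrophage, Kupffer, neutrophil, dendritic, T and NK, B, basophil, 4T1 epithelium, hepatocyte and erythroid markers were looked up too. Alternatives were other denominators, filters and matched UMIs.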

Additional observations from a re-analysis of the deposited data

How the results depend on the processing

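No paired analysis was possible because each group is 1 pooled library, and for the same reason no replicate could be left out. The ratio of monocyte shares stayed within its counting interval, at 0.749 to 0.806, with doublets and unknown cells removed, at least 1000 or 2000 UMIs, at most 10% mitochondrial UMIs, the top 5% of UMIs removed, UMI classes given equal weight, and the members changed at the macrophage border. The ratio of shares with equal weight for UMI classes lies near the main one by its making and is no adjustment for the monocytes' depth. The ratio of monocyte shares moved to 0.886 with cancer cells left out of the denominator and 0.929 among immune cells. It was 0.938 among monocytes, macrophages, Kupffer cells and neutrophils, 0.858 without cluster 11 and 0.882 without clusters 11 and 119. At up to 5% mitochondrial UMIs it was 1.14, above 1 but with overlapping exact intervals. Monocytes per macrophage ranged from 0.719 to 0.809, except at up to 5% mitochondrial UMIs. There the ratio was 1.03 (0.894 to 1.18), an interval that holds 1. Monocytes per neutrophil moved from 1.10 to 1.38 at 1000 UMIs, 1.50 at 2000 UMIs and 1.42 at up to 5% mitochondrial UMIs. The UMI ratio ranged from 0.733 to 0.769. The gene ratio passed 1, to 1.04 in 10 UMI classes and 1.02 in 50, and the mitochondrial difference moved to -0.0796 and -0.122 percentage points. The 1.04 includes the lowest of the 10 classes, where median UMIs still differed. The cause of these changes was not tested. Separate intervals were found for 4 clusters in 6 alternatives and 5 as shares of all cells. Calls for clusters 11, 119 and 83 held in each alternative run for them, cluster 25 lost its call as a share of all cells, and clusters 66 and 94 gained one, in 2 alternatives and in 1. The alternatives without clusters 11 or 119, at the macrophage border, with 50 UMI classes and as shares of all cells were chosen after seeing the data.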
